A study of Mus musculus with 18 samples.

Results

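The genes described here are 9 subunits of the Polycomb complexes, Bmi1, Ring1, Rnf2, Cbx2, Cbx7, Ezh1, Ezh2, Eed and Suz12, of 23420 genes in the deposited count tables. They were chosen by name, as the entries of the tables that carry these 9 symbols. No cut on a measured value was used, although earlier results of these data were known. All 9 were found and all 9 passed the filter on low counts, which left 14162 genes to test.

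Polycomb proteins keep developmental genes silent by marking the histones around them. Polycomb repressive complex PRC2, built on Eed, Suz12 and the methyltransferase Ezh2 or Ezh1, methylates a lysine in the tail of histone H3. PRC1, built on the ubiquitin ligase Rnf2 or Ring1 and a PCGF protein such as Bmi1, ubiquitinates histone H2A, and the CBX subunits of its canonical form, Cbx2 and Cbx7 among them, bind the PRC2 mark. In mouse fibroblasts Bmi1 is known as a barrier to direct cardiac reprogramming: lowering it helps the cells to take on a cardiomyocyte-like state.

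RNA was sequenced in bulk from primary cardiac fibroblasts of neonatal CD1 mice during such reprogramming. In the second of 2 sets, all 12 libraries came from cells that carried a retrovirus with Mef2c, Gata4 and Tbx5 on a single transcript. They formed 4 groups of 3 by short hairpin RNA (shRNA): a non-targeting control (shNT), shMtfr1l, shOpa1, and shMtfr1l with shOpa1, called the double knockdown here. Mtfr1l belongs to a family of regulators of mitochondrial fission and sits on the outer membrane, and Opa1 fuses the inner membranes. The sample titles tie replicates 1, 2 and 3 of every group to days 7, 8 and 9. For the replicates with an Opa1 hairpin the genotype label counts up (shOpa1, shOpa2, shOpa3) while the title does not, and the groups follow the titles. The libraries are called biological replicates without a statement that they came from separate animals, so the p-values speak only of the spread among libraries, which may be technical. In the first set, with 6 samples and 1 per condition, the shNT and shMtfr1l reprogramming samples of day 7 were used, without a test. The fibroblast samples of that set, whose treatment label is none, were not analysed here.

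Depth ran from 16205862 to 25317069 counts per library in the second set. Levels are given as CPM, the count scaled to the size of its library, with sizes adjusted by the trimmed mean of M values, and 3 counts, taken as the limit of detection, came to 0.117 to 0.183 CPM. Mtfr1l fell 4.38-fold in shMtfr1l (71.9 ± 4.17 CPM with the control hairpin and 16.4 ± 2.88 with its own; SD, n = 3 each). With both hairpins Mtfr1l was at 27.2 ± 4.15 CPM, 1.66-fold above shMtfr1l (adjusted p = 5.27e-06, edgeR). Opa1 fell 7.04-fold in shOpa1 (63.1 ± 8.33 and 8.96 ± 3.16 CPM). The summed level of 7 fibroblast markers was 26400 to 31020 CPM over all groups, and no marker of the list was at 0. Of the 7, 2 rose in shOpa1 against shNT, Thy1 1.209-fold and Col1a1 1.106-fold. In the same comparison 3 fell, with Pdgfra 1.58-fold, Vim 1.55-fold and Tcf21 1.505-fold lower. Against shNT, 2 rose in shMtfr1l (Col1a1 and Vim) and 2 fell (Dcn and Tcf21), while 1 rose and 4 fell in the double knockdown. In bulk RNA, fewer cells of a type and less RNA per cell cannot be told apart.

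The stretches upstream of Bmi1 and Ezh2 are shown first, since these are the PRC1 and the PRC2 core gene with the largest fold among the members called after Opa1 knockdown. Both come from RefSeq on GRCm38.p6, the mouse build that the files name mm10, and 8 of the 9 members have an entry there. Cbx2 has none. The Bmi1 stretch is the 250 bases before the annotated start, chr2:18676768-18677017 on the plus strand, with CG pairs in capitals.
Bmi1: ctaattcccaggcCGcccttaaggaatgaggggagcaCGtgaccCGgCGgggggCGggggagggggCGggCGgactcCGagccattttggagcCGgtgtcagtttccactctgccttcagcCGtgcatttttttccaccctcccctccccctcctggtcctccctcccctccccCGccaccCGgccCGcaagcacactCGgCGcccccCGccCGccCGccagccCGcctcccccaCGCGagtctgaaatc
The Ezh2 stretch is the 250 bases before the annotated start and the 11 bases after it, chr6:47595020-47595280 on the minus strand. Capitals mark TTTGGCGC, an E2F motif, and CCAAT, the motif bound by NF-Y, which appears as ATTGG where it lies on the other strand.
Ezh2: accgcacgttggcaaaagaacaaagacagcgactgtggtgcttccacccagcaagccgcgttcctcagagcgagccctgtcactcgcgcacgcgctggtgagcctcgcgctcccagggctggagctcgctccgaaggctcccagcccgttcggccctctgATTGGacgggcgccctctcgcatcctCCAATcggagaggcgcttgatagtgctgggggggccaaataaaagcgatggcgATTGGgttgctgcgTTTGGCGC
The Bmi1 stretch is 70.4% G and C and holds 21 CG pairs, an observed to expected ratio of 0.715. It holds none of the motifs searched. The 250 bases before Ezh2 are 63.6% G and C with 23 CG pairs, a ratio of 0.91.

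The motifs were searched on both strands of windows of 300 bases, 250 before and 50 after each start: TTTCGCGC or TTTGGCGC for E2F, TTTGAA for the cell cycle element CHR, CCAAT for NF-Y and the palindromic NRF1 motif. In the member windows no match of one motif overlapped a match of another. An E2F motif was found in 1 of the 8 member windows, that of Ezh2, at bases 4 to 11 after the start, and in 0.929% of 27025 genes. CCAAT was found in 4 of 8, with 3 matches at Ezh2 and 1 each at Eed, Suz12 and Cbx7, and in 41.1% of genes. TTTGAA was found in 3 of 8 (Eed, Suz12 and Cbx7) and in 20.2% of genes. The NRF1 motif was found in 0 of 8 and in 1.07% of genes. Of 22 matched genes in a list of 26 proliferation genes, 6 held an E2F motif and 19 a CCAAT. A match describes letters and is neither a bound site nor a cause.

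Levels can be compared between genes only per length, so the order of the 9 is given in RPKM, which is CPM per kilobase of exon, with lengths as in the tables. In shNT Rnf2 was highest at 21.7 ± 1.49 RPKM (SD, n = 3, as for every value here). Bmi1 followed at 16.8 ± 0.83 and Eed at 15.6 ± 0.70, and their libraries overlapped. Suz12 at 11.5 ± 0.37 and Ring1 at 11.1 ± 0.21 overlapped likewise, as did Ezh2 at 6.56 ± 0.32 and Ezh1 at 5.96 ± 0.56. Cbx2 at 3.02 ± 0.35 and Cbx7 at 1.88 ± 0.25 were lowest and lay apart from each other. After Opa1 knockdown Bmi1 moved from the second place to the fifth, at 8.79 ± 0.48 RPKM, and its libraries overlapped with Ezh2. It was the fourth in the double knockdown, at 11.2 ± 0.65, where it overlapped with Suz12 and Ring1. In shMtfr1l Bmi1 was again the second, at 17.98 ± 0.92.

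**Figure D1:**
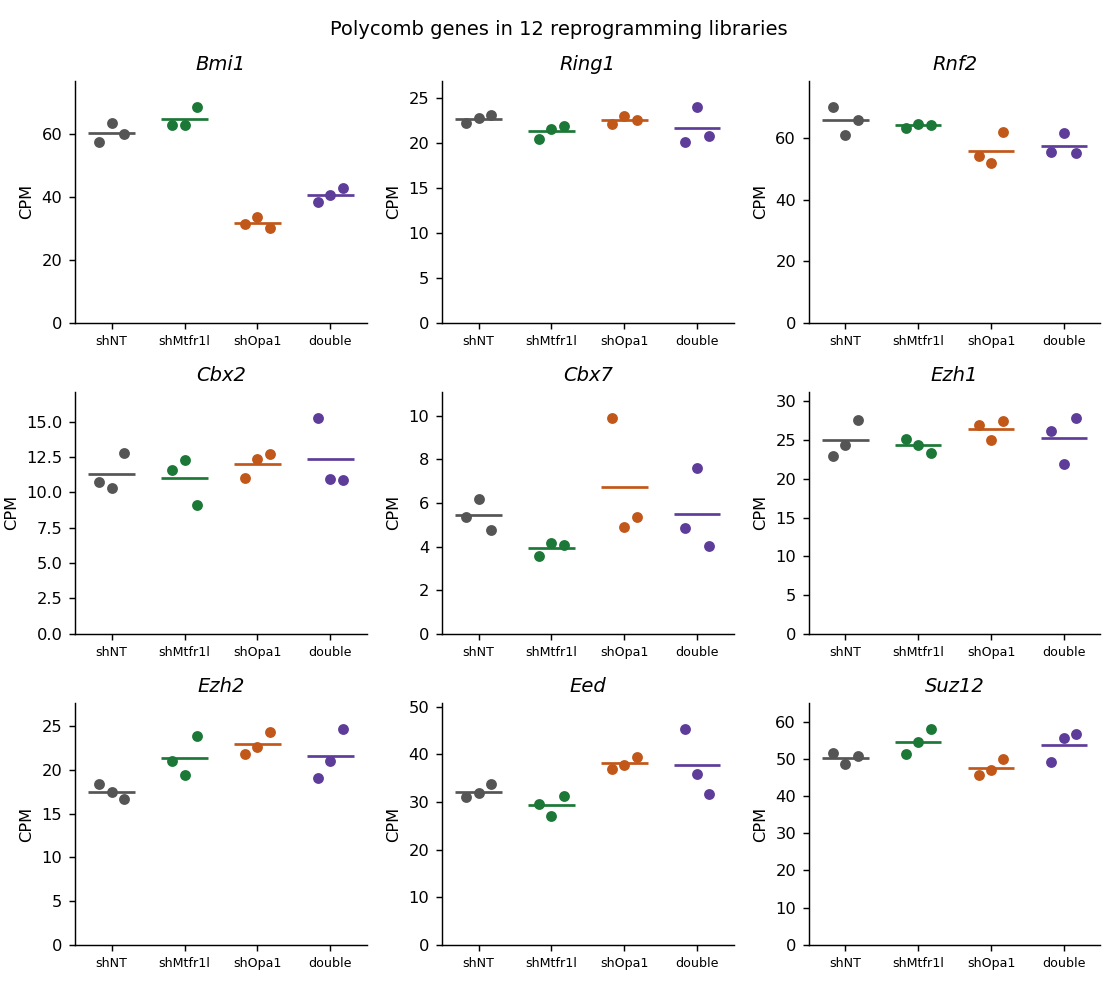
CPM of the 9 Polycomb genes (vertical axis from 0, a scale of its own in each panel) in each of the 12 libraries, by shRNA group, with the replicates in the order 1, 2 and 3 from left to right and the group mean as a line. Bmi1 lies between 30.1 and 42.8 CPM in the 6 libraries with an Opa1 hairpin and between 57.5 and 68.4 CPM in the other libraries, while the groups overlap for Ezh1.

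Bmi1 was the member with the largest change. Bmi1 (Pcgf4; mm10 chromosome 2, 18677018 to 18686629, plus strand) is the PCGF subunit of canonical PRC1 and raises the activity of its ubiquitin ligase. In shNT its level was 57.5, 63.4 and 59.9 CPM in replicates 1, 2 and 3, and in shMtfr1l 62.7, 62.7 and 68.4 CPM. In shOpa1 it was 31.2, 33.5 and 30.1 CPM, and in the double knockdown 38.1, 40.4 and 42.8 CPM. All 6 libraries with an Opa1 hairpin were lower than all 6 without one, and the double knockdown lay above shOpa1 without overlap. The shMtfr1l libraries overlapped with shNT. Bmi1 fell 1.91-fold in shOpa1 against shNT (log2 fold change -0.93 with an SE of 0.09; adjusted p = 5.31e-11 by the quasi-likelihood test of edgeR), from 60.3 ± 2.98 to 31.6 ± 1.72 CPM. The 95% interval of the log2 fold change was -1.11 to -0.76.

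The double knockdown lowered Bmi1 by less. It was 1.49-fold lower than in shNT (40.4 ± 2.32 CPM; log2 fold change -0.58 ± 0.09; adjusted p = 2.13e-06, edgeR) and 1.599-fold lower than in shMtfr1l (-0.68 ± 0.09; adjusted p = 1.06e-07). Against shOpa1 it was 1.28-fold higher (0.35 ± 0.09; adjusted p = 0.0103). That last call was lost without shOpa1 replicate 3 (adjusted p = 0.0541), without double knockdown replicate 3 (0.0711), and without replicate 2 (0.0781) or 3 (0.188) of every group. In shMtfr1l Bmi1 was at 64.6 ± 3.30 CPM, with a log2 fold change against shNT of 0.10 and an interval of -0.07 to 0.27 (adjusted p = 0.557). The interaction, the difference between the effect of shMtfr1l on top of shOpa1 and its effect alone, was 0.25 ± 0.12 on the log2 scale and did not pass (adjusted p = 0.299).

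Opa1 itself was 2.04-fold higher in the double knockdown than in shOpa1 (adjusted p = 0.00745, edgeR; 0.188 without replicate 1 of every group). It stood at 7.43, 6.85 and 12.6 CPM in shOpa1 and at 20.7, 15.99 and 18.2 CPM in the double knockdown, without overlap. In shNT it was 57.0, 72.6 and 59.7 CPM and in shMtfr1l 70.7, 72.2 and 73.4 CPM. Within shOpa1 the library with the highest Opa1 level, replicate 3, had the lowest Bmi1 level. The same held for replicate 1 of the double knockdown. In shNT and shMtfr1l the highest Opa1 and Bmi1 levels came from the same library, replicate 2 and replicate 3 respectively. The 12 libraries form separate clusters on this pair of values, so no correlation is given, and the part of the remaining Opa1 in the Bmi1 level was not tested.

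**Figure D2:**
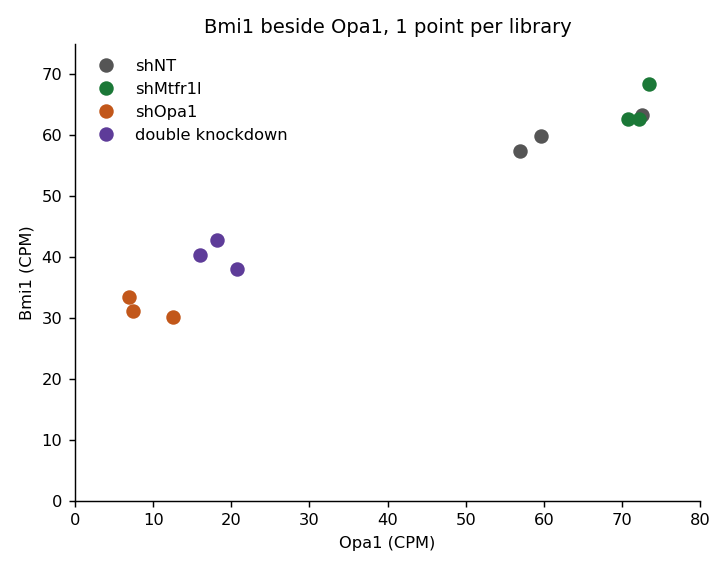
Bmi1 (vertical axis, CPM) against Opa1 (horizontal axis, CPM), 1 point per library, coloured by group, both axes from 0. The shOpa1 libraries lie at 6.85 to 12.6 CPM of Opa1 and 30.1 to 33.5 CPM of Bmi1, the double knockdown at 15.99 to 20.7 and 38.1 to 42.8, and the libraries without an Opa1 hairpin at 57.0 to 73.4 and 57.5 to 68.4.

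The gene just upstream of Bmi1 on the same strand is Commd3, which ends 801 bases before it. Its level was 96.3, 87.7 and 86.3 CPM in shNT, 87.4, 81.9 and 85.7 in shOpa1, and 69.7, 79.1 and 71.4 in the double knockdown. Commd3 in shOpa1 overlapped with shNT (log2 fold change -0.08, interval -0.23 to 0.06; adjusted p = 0.427, edgeR), where Bmi1 was lowest. In the double knockdown Commd3 was 1.23-fold lower than in shNT (adjusted p = 0.00207), a call lost without replicate 1 of every group (0.0946).

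Markers of heart muscle cells moved with the groups as well. The summed level of 7 cardiomyocyte markers was 2361 to 2405 CPM in shNT and 3256 to 3505 CPM in shMtfr1l, where 6 of the 7 rose. It was 1451 to 1620 CPM in shOpa1, where 6 of the 7 fell, and 1971 to 2021 CPM in the double knockdown, where 2 rose and 2 fell, and no marker was at 0. The sums stood in the same order of groups as the means of Bmi1, but single markers did not all follow it: against shNT the double knockdown had Myh6 1.70-fold and Actc1 1.23-fold higher. The sum of 4 leukocyte markers was 49.0 to 87.9 CPM in shNT, 59.0 to 182 in shOpa1 and 174 to 218 in the double knockdown, with 0 of 4 called in any group against shNT. The sum of 3 smooth muscle markers was 2854 to 3091 CPM in shNT, 2453 to 2556 in shOpa1 and 2476 to 2590 in shMtfr1l. That of 3 epicardial markers was 158 to 171, 117 to 138 and 115 to 120 CPM in the same order. Against shNT, 2 of 3 were lower in each list, both in shOpa1 and in shMtfr1l. The part of these cells in the Bmi1 level was not tested.

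Rnf2 and Ring1 are the ligases of PRC1. Rnf2 (chromosome 1, 151469406 to 151500823, minus strand), the more abundant of the pair, was at 70.2, 61.2 and 66.0 CPM in shNT and at 54.1, 52.0 and 61.9 CPM in shOpa1. The highest shOpa1 library reached past the lowest shNT library. Rnf2 was 1.17-fold lower in shOpa1 (log2 fold change -0.23 ± 0.08; adjusted p = 0.0304, edgeR). The call was lost without shNT replicate 1 (adjusted p = 0.132) or 3 (0.0723), without shOpa1 replicate 1 (0.104) or 2 (0.141), and without replicate 1 (0.291) or 2 (0.106) of every group. In shMtfr1l Rnf2 was at 63.5, 64.6 and 64.4 CPM and in the double knockdown at 55.5, 61.7 and 55.1 CPM. Against shNT it was not called in the double knockdown (log2 fold change -0.19; adjusted p = 0.0836), although it passed without replicate 2 of every group (0.0408).

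Ring1 (chromosome 17, 34020792 to 34024680, minus strand) was between 20.1 and 24.0 CPM in all 12 libraries. Its shMtfr1l libraries lay just under those of shNT and the other groups overlapped with shNT, and no comparison called it. The log2 fold change of Ring1 from shNT was -0.09 in shMtfr1l (interval -0.33 to 0.15), -0.01 after Opa1 knockdown (-0.25 to 0.23) and -0.07 after both (-0.31 to 0.17). Rnf2 took 66.1% ± 1.83 of the summed RPKM of both ligases in shNT and 62.5% ± 2.31 in shOpa1, and the libraries of these groups overlapped.

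Cbx2 and Cbx7, chromodomain subunits that bind the PRC2 mark, were the least abundant members. Cbx2 (chromosome 11, 119023029 to 119031270, plus strand) was between 9.11 and 15.3 CPM over all libraries, and its highest value came from double knockdown replicate 1. Cbx7 (chromosome 15, 79915807 to 79932646, minus strand) was at 5.37, 6.20 and 4.77 CPM in shNT and at 3.59, 4.15 and 4.06 CPM in shMtfr1l. The shMtfr1l libraries were all lower, but with a log2 fold change of -0.47 ± 0.28 the difference did not pass (adjusted p = 0.346, edgeR). In shOpa1 Cbx7 was at 9.90, 4.90 and 5.34 CPM and in the double knockdown at 4.85, 7.63 and 4.01 CPM. In both of these groups 1 library stood above the others, replicate 1 of shOpa1 and replicate 2 of the double knockdown. At these levels the interval of Cbx7 in shOpa1 against shNT ran from -0.25 to 0.85.

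Ezh2 is the methyltransferase of PRC2 in dividing cells. Ezh2 (chromosome 6, 47530274 to 47595030, minus strand) was at 18.4, 17.4 and 16.7 CPM in shNT and at 21.8, 22.7 and 24.4 CPM in shOpa1. In shMtfr1l it was at 21.0, 19.4 and 23.8 CPM and in the double knockdown at 19.1, 21.0 and 24.7 CPM. The 3 shNT libraries were the lowest of the 12, and the other groups overlapped with one another. Ezh2 rose 1.31-fold in shOpa1 (log2 fold change 0.39 ± 0.13; adjusted p = 0.0196, edgeR). The call was lost without shNT replicate 2 (adjusted p = 0.054) or 3 (0.0746), without shOpa1 replicate 3 (0.0766), and without replicate 2 (0.0969) or 3 (0.156) of every group. In shMtfr1l the log2 fold change was 0.29 ± 0.13 (adjusted p = 0.171) and in the double knockdown 0.30 ± 0.13 (adjusted p = 0.0884). Neither passed, and the interaction did not either (-0.38 ± 0.18; adjusted p = 0.306).

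Ezh1, the paralogue of Ezh2 that prevails in resting cells (chromosome 11, 101191115 to 101226450, minus strand), was between 21.9 and 27.9 CPM in all libraries. Its log2 fold change in shOpa1 against shNT was 0.08, with an interval of -0.15 to 0.32. Ezh2 took 52.5% ± 3.50 of the summed RPKM of Ezh1 and Ezh2 in shNT and 57.6% ± 1.5 in shOpa1, with 58.0% ± 3.23 in shMtfr1l and 57.3% ± 3.41 in the double knockdown.

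Eed binds the methyl mark and stimulates the enzyme, and Suz12 holds the complex together. Eed (chromosome 7, 89954654 to 89980976, minus strand) was at 31.0, 31.9 and 33.8 CPM in shNT and at 29.6, 27.0 and 31.3 CPM in shMtfr1l. In shOpa1 it was at 36.9, 37.9 and 39.5 CPM and in the double knockdown at 45.3, 36.0 and 31.7 CPM. The shOpa1 libraries lay above all of shNT and shMtfr1l, while the double knockdown spread from the shNT range to past that of shOpa1. Eed was 1.29-fold higher in the double knockdown than in shMtfr1l, a log2 fold change of 0.36 ± 0.11 (adjusted p = 0.0142 by edgeR). This call was lost without double knockdown replicate 1 (adjusted p = 0.231), without shMtfr1l replicate 2 (0.0734), and without replicate 1 (0.297) or 2 (0.116) of every group.

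Against shNT, Eed had a log2 fold change of 0.24 ± 0.11 in shOpa1 (adjusted p = 0.0968, edgeR) and 0.23 ± 0.11 in the double knockdown (adjusted p = 0.137). The latter passed without double knockdown replicate 3 (0.0351) and without replicate 3 of every group (0.042). Suz12 (chromosome 11, 79993106 to 80034123, plus strand) was between 45.6 and 57.9 CPM in all libraries. It was called in no comparison, and its log2 fold change against shNT was 0.12 in shMtfr1l (interval -0.06 to 0.29), -0.08 after Opa1 knockdown (-0.25 to 0.09) and 0.10 after both (-0.08 to 0.27).

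**Figure D3:**
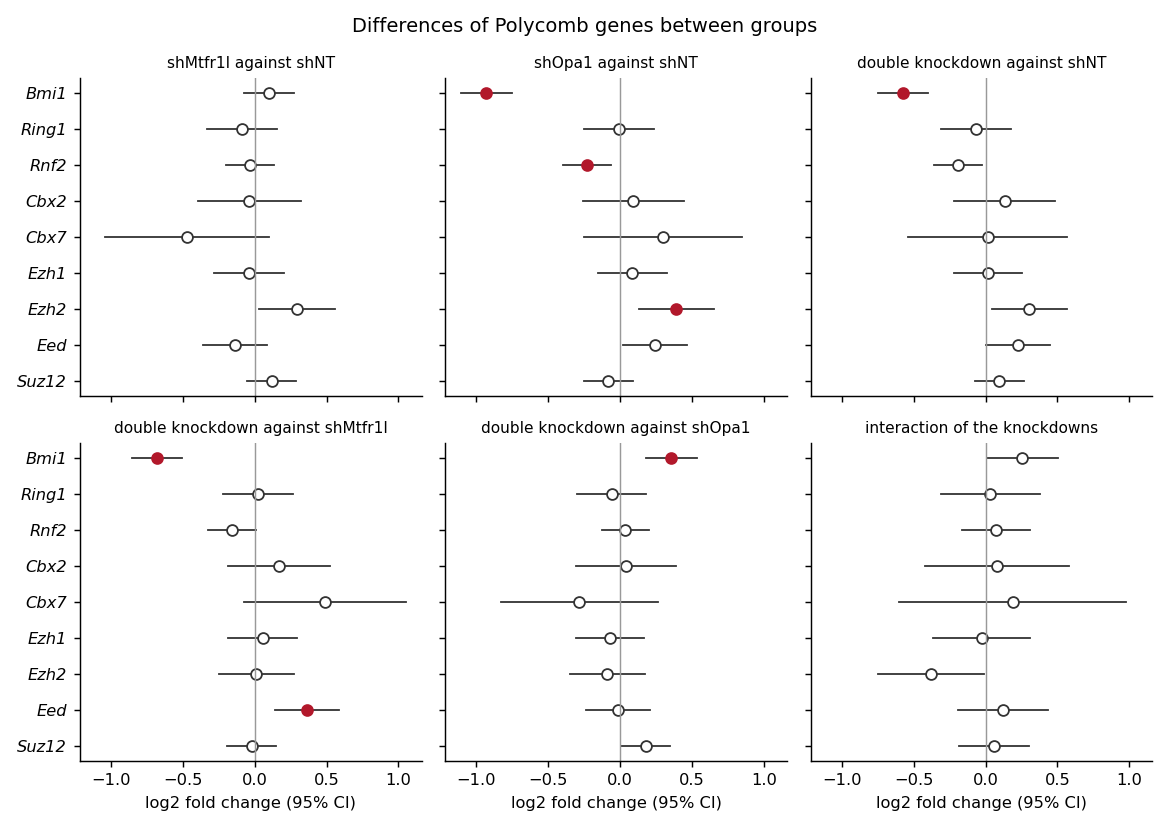
Log2 fold change of each member (points) with its 95% confidence interval (lines) in 5 comparisons of groups and in the interaction of the knockdowns, from 3 libraries per group. Filled points passed an adjusted p of 0.05, and Bmi1 in shOpa1 against shNT, at -0.93, is the farthest from 0.

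The 3 comparisons with shNT share its libraries, so their counts are given side by side. Over the 9 members, 0 were called in shMtfr1l against shNT, where 10.8% of all tested genes were. In shOpa1 against shNT 3 were called, Ezh2 higher and Bmi1 and Rnf2 lower, beside 29.4% of all genes. In the double knockdown 1 was called against shNT (23.1% of all genes), 2 against shMtfr1l (21.5%) and 1 against shOpa1 (4.77%). The interaction called 0 of the 9, beside 3.56% of all genes. Counts of 0 to 3 of 9 do not set the members apart from these shares. At an unadjusted p under 0.05, the edgeR test passed 1 member in shMtfr1l against shNT (Ezh2) and 2 in the interaction (Bmi1 and Ezh2), beside 3100 and 2185 of all 14162 genes. It passed 4 in shOpa1 and 4 in the double knockdown against shNT, beside 5419 and 4817 genes. The double knockdown had 2 against shMtfr1l and 2 against shOpa1, beside 4591 and 2294 genes. At an adjusted p under 0.05 the DESeq2 test, like edgeR, called 0 of the 9 in shMtfr1l against shNT and in the interaction. The median log2 fold change of the 9 was -0.04 in shMtfr1l and 0.08 in shOpa1 against shNT, beside 0.003 and 0.01 over all genes.

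The first set gives a second look at shMtfr1l, on day 7 and with summed counts of 67068683 and 62923192 for the samples used. Its table was normalised on its own, so only the difference within it is used. Mtfr1l itself went from 79.3 to 8.73 CPM. Of the 9 members 2 differed by more than 1.25-fold, beside 30.4% of 13766 genes kept. Suz12 was higher in shMtfr1l (45.6 and 57.05 CPM; log2 difference 0.32) and Cbx7 lower (11.8 and 8.32 CPM; -0.50). Bmi1 was at 64.1 and 60.6 CPM (-0.08) and Ezh2 at 19.3 and 23.5 CPM (0.28). These differences have no replicate check.

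Bmi1 is 1 of 6 PCGF genes, each of which marks a PRC1 variant. Per length, Bmi1 made up 19.9% ± 0.62 of the summed PCGF level in shNT and 19.25% ± 0.68 in shMtfr1l. The share was 10.8% ± 0.59 in shOpa1 and 13.7% ± 0.74 with both hairpins. Pcgf2 (Mel18), the closest paralogue and the other PCGF subunit of canonical PRC1, had a log2 fold change of -0.23 in shOpa1 against shNT (adjusted p = 0.13, edgeR). Pcgf3, a subunit of variant PRC1, was at 69.2, 73.8 and 79.3 CPM in shNT and at 98.6, 104.8 and 99.4 CPM in shOpa1, without overlap. Pcgf3 rose 1.36-fold (log2 fold change 0.44 ± 0.07; adjusted p = 1.76e-06), and its share of the PCGF level went from 23.6% ± 1.41 to 33.4% ± 1.96. Pcgf5, the most abundant of the family, held 37.7% ± 1.51 and 37.3% ± 1.96. The summed PCGF level was 84.1 ± 1.60 RPKM in shNT and 81.4 ± 7.67 in shOpa1.

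**Figure D4:**
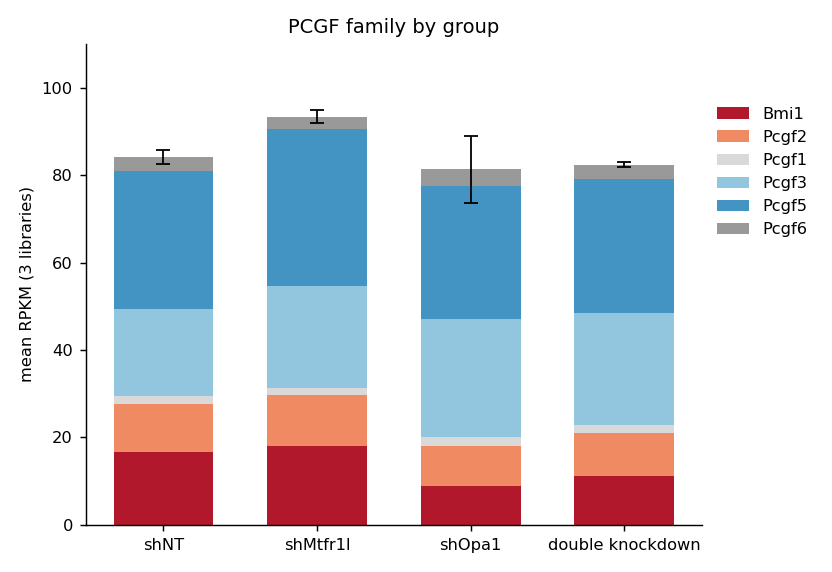
Mean RPKM of the 6 PCGF genes, stacked by group (n = 3 libraries each; the bar on top is the SD of the sum). The Bmi1 part is 16.8 RPKM for shNT, 17.98 for shMtfr1l, 8.79 for shOpa1 and 11.2 for both hairpins, while the sums lie between 81.4 and 93.4 RPKM.

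Other PRC1 genes were followed as a list of 25, all tested. In shOpa1 against shNT 5 rose and 2 fell, which is 28% beside 29.4% of all genes, with a median log2 fold change of 0.10. Besides Pcgf3, E2f6, the DNA-binding subunit of a variant PRC1, rose 1.62-fold from 39.9 ± 2.54 to 64.5 ± 4.89 CPM (adjusted p = 1.12e-07, edgeR). The scaffold Phc2 and the WD40 protein Dcaf7 rose 1.25-fold and 1.21-fold. Auts2, a subunit of variant PRC1 with Pcgf3 or Pcgf5, fell 1.39-fold in shOpa1 (78.5 ± 4.80 and 56.6 ± 5.99 CPM; adjusted p = 2.40e-05).

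In shMtfr1l against shNT 5 of the 25 rose and 0 fell, which is 20% beside 10.8% of all genes. In the double knockdown against shNT 5 rose and 0 fell, 20% beside 23.1% of all genes. Auts2 rose in shMtfr1l, to 103 ± 0.51 CPM (1.31-fold; adjusted p = 0.00106, edgeR), although not without replicate 1 of every group (0.0814). Cbx6, which held 72.0% to 79.8% of the summed RPKM of 5 CBX genes in the group means, rose 1.28-fold in shMtfr1l (185 ± 13.2 and 237 ± 11.1 CPM; adjusted p = 5.43e-05). In the double knockdown E2f6 rose 1.39-fold and Pcgf3 1.28-fold against shNT. Cbx2 and Cbx7 held 6.66% and 4.19% of the CBX level in shNT.

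Of 9 other PRC2 genes 8 were tested, and Ezhip had 0 counts. In shOpa1 against shNT 2 rose and 1 fell, 37.5% beside 29.4% of all genes, with a median log2 fold change of 0.26. Phf19, a Polycomb-like subunit that binds methylated H3, was at 4.46, 6.37 and 8.89 CPM in shNT and at 10.2, 12.6 and 11.9 CPM in shOpa1. The groups did not overlap, and Phf19 rose 1.75-fold (adjusted p = 0.00292, edgeR; 0.0551 without replicate 2 of every group). Jarid2, which guides PRC2 to its targets, rose 1.44-fold in shMtfr1l (15.2 ± 0.80 and 21.9 ± 1.08 CPM; adjusted p = 0.0192). This call was lost without shNT replicate 2 (0.0863), without shMtfr1l replicate 1 (0.0831), and without replicate 1 (0.127), 2 (0.100) or 3 (0.0695) of every group.

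Enzymes that undo the Polycomb marks formed a list of 8 together with Asxl1, Asxl2 and Asxl3, which are partners of the enzyme Bap1. In shOpa1 against shNT 2 rose and 0 fell, or 25% beside 29.4% of all genes. Kdm6b, which removes the methyl groups that PRC2 adds, rose 1.38-fold from 65.4 ± 4.85 to 90.4 ± 8.17 CPM (adjusted p = 1.10e-05, edgeR). Bap1, which removes ubiquitin from H2A, rose 1.27-fold (75.6 ± 2.19 and 96.4 ± 6.72 CPM; adjusted p = 2.13e-04). In the double knockdown against shNT 2 rose as well, 25% beside 23.1% of all genes. In shMtfr1l 1 rose (Kdm6b) and 1 fell (Asxl2, not an enzyme), 25% beside 10.8% of all genes. Trithorax genes oppose Polycomb, and code for enzymes that methylate another lysine of H3 or for partners of such enzymes. Of 12 such genes, 3 rose and 0 fell in shOpa1, again 25% beside 29.4% of all genes. They included Kmt2a, at 77.2 ± 6.14 CPM in shNT and 101 ± 6.21 in shOpa1 (1.30-fold; adjusted p = 1.50e-04), and Setd1a (1.29-fold; adjusted p = 7.28e-04). In the double knockdown 5 of the 12 rose and 1 fell, 50% beside 23.1% of all genes. In shMtfr1l 1 rose, 8.33% beside 10.8% of all genes. This was Kmt2a (1.30-fold, edgeR adjusted p = 5.46e-04, and 0.0903 without replicate 1 of every group).

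Of 42 genes at classic Polycomb target loci, the Hox clusters and the cyclin-dependent kinase inhibitors, only 10 could be tested. The other 32, all Hox genes, were filtered for low counts and none of them passed 0.987 CPM in any library. In shOpa1 against shNT 0 of the 10 rose and 2 fell, both kinase inhibitors, which is 20% of the list beside 29.4% of all genes. Cdkn1c was at 15.1, 14.6 and 17.3 CPM in shNT and at 10.1, 11.3 and 9.30 CPM in shOpa1, without overlap. It fell 1.53-fold (adjusted p = 0.0046, edgeR; 0.105 without replicate 3 of every group), and in the double knockdown 1.83-fold (adjusted p = 1.33e-04). Cdkn2b was 1.28-fold lower in shOpa1 (adjusted p = 0.0343), a call lost in 8 of the fits with libraries left out (up to 0.266, without replicate 1 of every group). Cdkn2a, the locus best known to be held silent by Bmi1, was at 7.63, 9.82 and 7.28 CPM in shNT and at 8.27, 6.23 and 7.77 CPM in shOpa1. These libraries overlapped, with a log2 fold change of -0.15 and an interval of -0.59 to 0.28.

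Of 26 proliferation genes, 12 rose and 1 fell in shOpa1 against shNT, 50% beside 29.4% of all genes, with a median log2 fold change of 0.24. Their summed level was 1063 to 1097 CPM in shNT and 1130 to 1210 in shMtfr1l. It was 1182 to 1370 in shOpa1 and 1259 to 1323 in the double knockdown. The replication licensing gene Mcm5 rose 1.59-fold (41.2 ± 4.88 and 65.2 ± 5.45 CPM; adjusted p = 6.04e-07, edgeR) and Mcm6 1.36-fold (adjusted p = 5.57e-06). Top2a rose by less, 1.14-fold (adjusted p = 0.0313, edgeR). The gene that fell was Ccne2 (1.36-fold; adjusted p = 0.0311, edgeR), called in 15 of 21 alternatives. Ezh2 rose in shOpa1 as well, in a call lost when some libraries were left out. The part of dividing cells, or of the motifs in its promoter, in its level was not tested. In the double knockdown 11 of the 26 rose, 42.3% beside 23.1% of all genes, and in shMtfr1l 2 rose, 7.69% beside 10.8%.

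**Figure D5:**
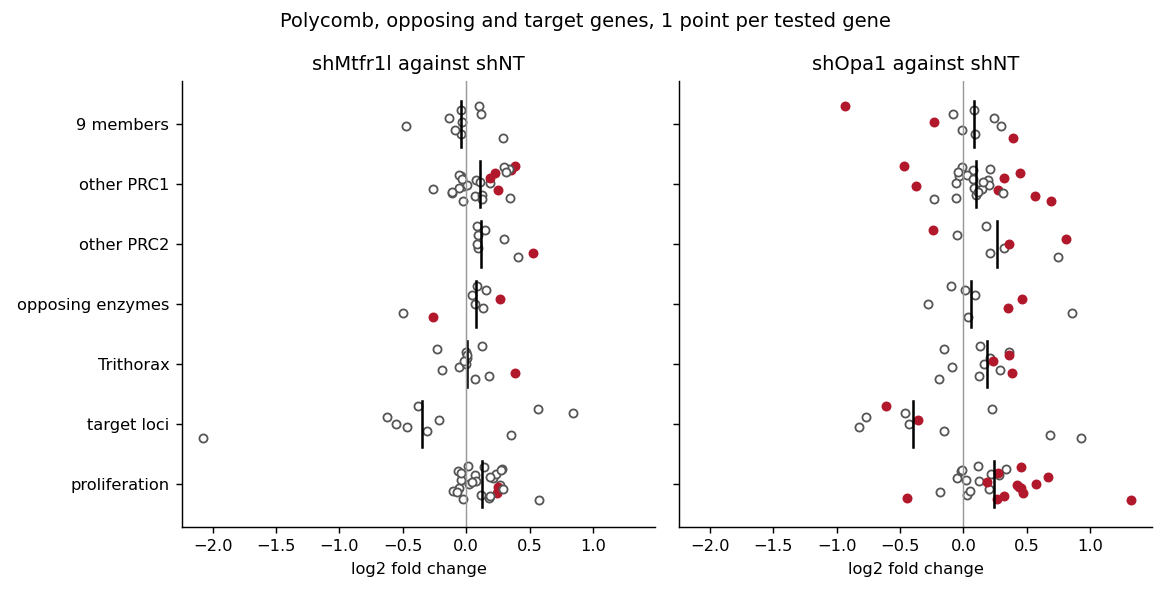
Log2 fold change of the members and of 6 lists of related genes in shMtfr1l (left) and shOpa1 (right) against shNT, 1 point per tested gene, filled where the adjusted p was under 0.05, with a line at the list median. In shOpa1 the proliferation genes have a median of 0.24, and the lowest of the 9 members is Bmi1 at -0.93.

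Across the 12 libraries, the genes most like each called member were found by Pearson's r of log2 CPM among 12146 tested genes that averaged 2 CPM or more. These r values hold the group differences, and all genes share the same libraries. For Bmi1 they were Cd164, a sialomucin of endosomes and lysosomes (r = 0.994), Scarb2, a lysosomal membrane protein (0.993), and Kif5b, a kinesin motor (0.992). In shOpa1 against shNT Cd164 was 2.10-fold, Scarb2 1.99-fold and Kif5b 1.64-fold lower. For Ezh2 they were Slmo2 (0.913), Ss18 (0.903) and the cell cycle repressor E2f7 (0.897). For Rnf2 they were Dnajb6 (0.943), Lrrc14b (0.927) and Vamp8 (0.914), and for Eed they were Gtf3c2 (0.934), Mbp (0.917) and Gtpbp4 (0.914).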

How the data were processed

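Bulk RNA was sequenced from 18 samples in 2 sets. The deposited tables hold unnormalised counts for each gene, made by the authors with featureCounts 2.0.6 on a UCSC gene annotation of mm10 with strand-specific counting, per the file headers. The mates of a pair appear to have been counted separately: of the counts from 1 to 20, 65.86% were even. A fragment would then often give more than 1 count, so 3 counts can stand for fewer than 3 fragments. The submitters' processing notes list FastQC and DESeq2. No aligner is given in the sources used here. The first set gave 3 count columns per sample used, which were summed and taken as 1 replicate. A further 12 columns, whose names do not show which fibroblast sample they hold, were not used.

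Counts were scaled with TMM, filtered with filterByExpr and compared with edgeR 4.0.16 (quasi-likelihood test with robust dispersion, a mean per group, leaving 8 residual degrees of freedom) under R 4.3.3. The adjustment ran over all 14162 tested genes (Benjamini-Hochberg), and calls are at an adjusted p under 0.05. RPKM is CPM divided by the exon length of the tables. The common biological coefficient of variation was 12.04%. Tests were checked on simulated data. An exact two-sided permutation test of 3 against 3 cannot go below 0.1, so none is given for single genes. Intervals for the log2 fold change are at 95%, and the 3 count limit covers counting error only.

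The members and lists were chosen with earlier results of these data known. All 9 members are named; a list gene could be named where it was called, and others were picked after their values were seen (Pcgf2, Pcgf5, Cdkn2a, Ezhip). For each called member the 3 genes of highest r are named. The replicate number stands for a shared day in the titles. Deviations from the group means correlated at -0.357 to 0.19 over 18 pairs of the same number (median -0.014), and at -0.229 to 0.328 over 36 pairs of different numbers. Alternatives were DESeq2 size factors, the DESeq2 1.42.0 Wald test, no filter, only the groups compared, a replicate block, each library or replicate number left out and, chosen after seeing the data, a fit without robust dispersion and all of these for list genes.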

Additional observations from a re-analysis of the deposited data

Results flagged for a closer look

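The interaction term over 12 libraries (edgeR, adjusted over all tested genes) asks whether the shMtfr1l difference was the same with and without the Opa1 hairpin. It was called for 2 of 25 other PRC1 genes (8%) and 1 of 8 genes on the list that opposes the marks (12.5%). It was called for 0 of the 9 members, 0 of 8 other PRC2 genes and 0 of 12 Trithorax genes. Among target loci it called 0 of 10 genes and among proliferation genes 0 of 26. Over all genes the share was 3.56%, and counts this small do not set the lists apart from it. Mtfr1l was less depleted with both hairpins (27.2 ± 4.15 CPM) than in shMtfr1l (16.4 ± 2.88 CPM), with an interaction of its own of 0.78 (adjusted p = 0.00146; 0.108 without replicate 2 of every group), and the part of this in the 3 results was not tested. Cbx6, the most abundant CBX gene, had an interaction of -0.35 on the log2 scale (SE 0.09; adjusted p = 0.0137; 0.0582 without shMtfr1l replicate 1, 0.079 without shOpa1 replicate 1, 0.412 without replicate 1 of every group and 0.106 without replicate 2). Its means were 185 ± 13.2 CPM (shNT), 237 ± 11.1 (shMtfr1l), 195 ± 14.4 (shOpa1) and 196 ± 7.77 (double knockdown). For Dcaf7 the interaction was -0.32 (SE 0.08; adjusted p = 0.0105; 0.122 without replicate 1 of every group and 0.137 without replicate 2), with 167 ± 5.43, 199 ± 8.38, 203 ± 3.88 and 193 ± 3.92 CPM in the same order. For Kdm6b it was -0.38 (SE 0.11; adjusted p = 0.0466), with 65.4 ± 4.85, 78.8 ± 4.88, 90.4 ± 8.17 and 83.7 ± 5.86 CPM, and it did not pass with the replicate block (0.0741), with DESeq2 size factors (0.0542) or without robust dispersion (0.0764), nor in 10 of the fits with libraries left out, with an adjusted p of up to 0.482.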

How the results depend on the processing

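Bmi1 passed in shOpa1 against shNT under all 21 alternatives, with a log2 fold change of -0.98 to -0.89. Over 1125 recomputed values of the members 0 called values reversed. With the replicate number as a block (replicate block), 0, 3, 1, 2, 1 and 0 members were called in shMtfr1l, shOpa1 and the double knockdown against shNT, the double knockdown against shMtfr1l and against shOpa1, and the interaction, as without it, and the block changed no member's call. Over all genes it called 1387, 4003, 3071, 2846, 576 and 411 genes in that order. With single libraries or replicate numbers left out, the members called ranged over 0 to 0, 1 to 3, 1 to 2, 1 to 2, 0 to 1 and 0 to 0, and the genes called over 790 to 1574, 3020 to 4228, 2185 to 3415, 1964 to 3187, 199 to 738 and 161 to 539. Of 91 calls of list genes 35 held in every alternative, so single calls there are less sure than that of Bmi1. Depth limits Cbx7 most, with 69 counts in its lowest library.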
